A study of Mus musculus with 12 samples.

Results

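Distal intergenic sites of open chromatin were examined in CD8+ T_prog_ cells with and without UTX. A site was counted as distal where the authors' HOMER annotation of the peak was intergenic and the nearest promoter lay more than 50 kb away in either direction. Of 23932 peaks that the authors listed as different between the genotypes, 2668 (11.1%) met this rule. Every listed peak had an FDR under 0.05 in the authors' comparison, so peaks that did not differ are not part of these counts. For a changed peak the paper also required an absolute log2 fold change over 0.5. The list used here holds smaller differences too, so it is longer than the paper's count of changed peaks.

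RNA-seq and ATAC-seq had each been done on 3 WT and 3 UTX TCD libraries of CD8+ T cells from the pancreatic lymph node. UTX TCD mice were NOD mice with floxed UTX alleles (UTX fl/fl) deleted by Lck-Cre, a Cre expressed in T cells, and their WT controls were Cre-negative littermates. Both groups carried the NY8.3 T cell receptor transgene, which recognizes a β cell antigen, so most T cells shared 1 receptor. The line had been made by backcrossing a C57BL/6 allele to NOD, only females were studied, and ages were not given for these libraries in the sources used here. By the labels the sorted cells were Ly108+CXCR6-, and by the methods of the study they were Ly108+CD39-.

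Most enhancers lie outside promoters, and some act on genes that are far away along the chromosome. In T cells, large stretches without genes beside regulators of cell identity hold many such elements. The nearest promoter is therefore a convention for naming a distal site and not evidence of its target.

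Accessibility was read as the authors' mean log2 read concentration of each genotype, and the difference is given as UTX TCD minus WT. These means carry no values per library, so no spread and no test of accessibility can be given here. Expression was tested across 14459 genes with limma on log2(normalized count + 1), and a gene was called at an adjusted p under 0.05 with an absolute log2 fold change over 0.5. For a single gene, 3 libraries against 3 allow no exact permutation p below 0.1. In sorted bulk cells, fewer cells of a kind and less RNA per cell cannot be told apart.

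*Kdm6a*, which encodes UTX, was counted at 28365, 28949 and 29172 in WT and at 24158, 24792 and 24579 in UTX TCD libraries. All 3 UTX TCD libraries lay below WT (log2 fold change -0.23 ± 0.04 SE, limma adjusted p = 0.00114). This was short of the fold limit, and counts per gene do not show whether the floxed exons were read. None of the distal peaks was assigned to *Kdm6a*.

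The 7 CD8 T cell markers summed to 868559, 814907 and 848070 normalized counts in WT and to 837540, 816836 and 748412 in UTX TCD libraries, and none was called. Markers of other lineages were far lower. The 5 B cell markers summed to 2951, 2437 and 2800 in WT and to 1221, 1082 and 1000 in UTX TCD libraries, with *Cd79b* the most abundant, 1 marker called higher and 1 called lower. The 6 myeloid markers summed to 543, 556 and 528 in WT and to 135, 175 and 135 in UTX TCD libraries, with *Itgam* the most abundant, 2 called lower and *S100a8* at 0 in all libraries. Sums over the 3 CD4 T cell markers, led by *Foxp3*, were 450, 378 and 404 in WT and 382, 364 and 346 in UTX TCD libraries, with *Cd4* called lower. Dendritic cell markers, led by *Xcr1*, summed to 197 and 231 as means of WT and UTX TCD, NK cell markers, led by *Klrb1c*, to 35.9 and 22.2, and red cell markers, led by *Hba-a1*, to 49.0 and 66.1. Pancreas markers, led by *Prss2* and with *Ins2* at 0, summed to 177 and 125, with *Cela1* called lower. Stroma and vessel markers summed to 31452 and 36782, almost all of it *Pecam1*, which T cells also express. Whether these lineage markers play a part in the results below was not tested.

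Distal sites differed in both directions. Of the 2668 peaks, 1642 had the higher mean in UTX TCD cells (opened) and 1026 the lower (closed), so 61.5% were opened. The share was 68.8% among all listed peaks, 66.8% among intergenic peaks up to 50 kb from a promoter, 65.6% in introns and 85.3% at promoters. The median difference was 0.73 among the more accessible distal peaks and -0.83 among the less accessible ones. Differences over 1 were found at 478 distal peaks (17.9%), against 19.1% of all listed peaks, and differences under -1 at 386 (14.5%), against 10.2%. Distal peaks thus held relatively more large decreases than the listed peaks as a whole.

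The share of opened peaks was lowest from 200 to 500 kb. Peaks 50 to 100 kb from a promoter numbered 1445 and were higher at 63.2%, and the 795 peaks from 100 to 200 kb were higher at 62.5%. The 369 peaks from 200 to 500 kb were higher at 53.4%, and the 59 beyond 500 kb at 59.3%. The median distance was 93.5 kb. Just inside the limit lay a peak 50028 bp from *Aasdhppt* with a difference of 0.97, and just outside it a peak at -49994 bp from *Pole4* with a difference of 0.51. Upstream and downstream peaks were alike, with 62.1% and 61.0% higher.

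Chromosomes differed in how much of their listed accessibility was distal. Chromosome 12 held 236 distal peaks, 21.9% of its listed peaks, and 20 of the 79 distal peaks with a difference over 2. Chromosome 11 held only 75, or 4.13%, yet 10 of those with a difference over 2. On chromosome 7, 41.2% of 97 distal peaks were higher, the lowest share of any assembled chromosome, and on chromosome 13 the share was 74.4% of 176.

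Most of the 10 largest increases were assigned to genes too low in these cells to be tested. Among them, a peak at chr12:106357615-106358015 (mm10) assigned to the noncoding gene *1700121N20Rik* went in the authors' means from 3.15 in WT to 8.20 in UTX TCD, a difference of 5.06, and a peak at chr8:40223982-40224382 assigned to *Fgf20* from 1.94 to 6.18. Further peaks among the 10 had differences from 3.66 to 4.32 and were assigned to *Bod1*, *4933406K04Rik*, *Gda*, *1700121N20Rik* and *Acsl3*.

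The 10 largest decreases lay at sites with WT means from 6.05 to 9.44, against a median of 7.47 over all distal peaks. Near *Fut8*, which encodes a fucosyltransferase, a peak at chr12:77540027-77540427 went from 9.44 to 5.31, a difference of -4.14, and a neighbour at chr12:77542246-77542646 from 7.78 to 4.08. The second largest decrease, -3.92, was assigned to *1010001N08Rik*. Beside *Pcmtd1*, 3 peaks more than 366 kb from its promoter had differences of -3.90, -3.53 and -3.05. Beside the noncoding gene *4933440M02Rik*, all 4 distal peaks were lower, with differences from -3.28 to -2.41. Normalized counts of this gene were 146, 123 and 169 in WT and 0, 4.80 and 0 in UTX TCD libraries, and it was called lower (log2 fold change -6.34 ± 0.66 SE, limma adjusted p = 9.81e-05). *Pcmtd1* itself was short of the fold limit (log2 fold change -0.25 ± 0.04 SE, limma adjusted p = 0.00111).

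The central bases of 4 among the 7 largest increases and of 4 among the 5 largest decreases are shown to make these sites concrete. They were read from the plus strand of GRCm38.p6, which is the C57BL/6J sequence and not that of NOD, so strain differences are not seen. Capitals mark, on either strand, the letters AGNGGGC (part of a CTCF motif), GGGCGG (SP), AGGTCA (recognized by nuclear receptors) and TGTGGTT (RUNX), the pair of motifs most shifted towards opened and the pair most shifted towards closed distal peaks. These letters occur in 19.9%, 16.8%, 10.3% and 12.7% of all listed peaks when the same length at their centre is read.
1700121N20Rik peak, chr12:106357715-106357915: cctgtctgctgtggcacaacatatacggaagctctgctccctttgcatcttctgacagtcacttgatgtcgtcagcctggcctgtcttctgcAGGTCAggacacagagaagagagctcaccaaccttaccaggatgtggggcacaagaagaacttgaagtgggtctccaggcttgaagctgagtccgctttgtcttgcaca
Bod1 peak, chr11:31726040-31726240: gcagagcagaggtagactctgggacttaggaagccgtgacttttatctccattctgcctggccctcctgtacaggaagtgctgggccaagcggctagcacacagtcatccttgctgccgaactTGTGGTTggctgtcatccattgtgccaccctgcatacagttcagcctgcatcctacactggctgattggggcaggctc
Fgf20 peak, chr8:40224082-40224282: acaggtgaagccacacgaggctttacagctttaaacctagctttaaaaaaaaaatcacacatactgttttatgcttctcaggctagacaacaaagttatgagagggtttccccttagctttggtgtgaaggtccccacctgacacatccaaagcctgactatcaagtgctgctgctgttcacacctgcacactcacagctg
4933406K04Rik peak, chr12:106864998-106865198: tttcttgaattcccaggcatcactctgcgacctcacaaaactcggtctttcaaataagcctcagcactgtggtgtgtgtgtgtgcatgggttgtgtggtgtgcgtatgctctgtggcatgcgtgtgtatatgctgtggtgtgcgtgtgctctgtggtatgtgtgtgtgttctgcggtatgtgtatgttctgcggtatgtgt
Fut8 peak, chr12:77540127-77540327: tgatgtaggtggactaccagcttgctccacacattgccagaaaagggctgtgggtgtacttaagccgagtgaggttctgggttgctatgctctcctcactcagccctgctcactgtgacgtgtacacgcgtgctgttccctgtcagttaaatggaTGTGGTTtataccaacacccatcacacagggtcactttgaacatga
Pcmtd1 peak, chr1:7455045-7455245: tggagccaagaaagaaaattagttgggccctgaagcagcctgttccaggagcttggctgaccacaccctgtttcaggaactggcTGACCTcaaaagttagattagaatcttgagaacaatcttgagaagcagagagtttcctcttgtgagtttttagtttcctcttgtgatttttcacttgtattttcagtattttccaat
Fut8 peak, chr12:77542346-77542546: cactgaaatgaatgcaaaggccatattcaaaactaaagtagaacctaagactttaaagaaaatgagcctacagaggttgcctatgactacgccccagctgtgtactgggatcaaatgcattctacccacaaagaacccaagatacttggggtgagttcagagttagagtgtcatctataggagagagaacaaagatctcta
Zfp507 peak, chr7:35957881-35958081: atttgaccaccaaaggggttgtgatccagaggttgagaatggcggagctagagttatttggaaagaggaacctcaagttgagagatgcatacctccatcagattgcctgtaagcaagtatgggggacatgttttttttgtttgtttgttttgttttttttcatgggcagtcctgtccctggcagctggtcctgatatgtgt
Of the 8 windows, 4 held none of the marked letters.

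Across all 2665 distal peaks on assembled chromosomes, short motifs were counted in the whole peak as a description. The CTCF part was present in 26.7% of opened and 19.0% of closed distal peaks, against 29.2% of all listed peaks. SP letters were present in 14.2% and 8.41%, against 22.3%, and the interferon response letters GAAANNGAA in 18.9% and 14.3%, against 13.6%. In the other direction, the nuclear receptor letters AGGTCA were present in 18.5% of opened and 26.2% of closed distal peaks, RUNX letters in 17.7% and 21.9%, and the KLF letters GGGTGTGG in 3.65% and 7.04%, against 20.9%, 17.7% and 5.50% of all listed peaks. Listed peaks that were not distal leaned the same way for these motifs. Among them, the CTCF part was present in 31.4% of opened and 26.5% of closed peaks, and SP letters in 27.0% and 15.8%. Nuclear receptor letters were present there in 18.1% and 27.1%, and RUNX letters in 15.7% and 21.4%. The TCF/LEF letters CTTTGA were about as common in opened (37.1%) as in closed distal peaks (36.6%), and both were above the 30.6% of all listed peaks. STAT letters TTCNNNGAA were at 15.4% and 15.7%, against 11.9%. Among the other motifs, ETS letters AGGAAGT stood at 26.0% and 29.2%, AP-1 letters TGANTCA at 13.7% and 15.4%, NFAT letters TGGAAA at 32.3% and 33.6%, and NF-kB letters GGGNNTTCC at 7.92% and 4.99%. T-box letters AGGTGTGA were at 3.17% and 1.96%, E2A E-box letters CAGCTG at 23.5% and 24.2%, ZEB E-box letters CAGGTG at 28.1% and 27.4%, GATA letters AGATAAG at 5.24% and 6.06%, FOX letters TGTTTAC at 6.88% and 7.04% and CRE letters TGACGTCA at 0.974% and 0.782%.

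Base composition differed along with these shares. Closed distal peaks held a mean of 4.03 CpG and opened ones 7.91, against 10.3 over all listed peaks. Mean GC content was 46.9% and 48.1%, against 50.9%. Repeat-masked bases made up 18.1% of closed and 13.6% of opened distal peaks. With distal peaks split into 3 groups of rising GC content, the CTCF part was more frequent in opened peaks in each group, at 16.8% and 13.9%, 25.0% and 16.4%, and 37.9% and 28.5%. The nuclear receptor letters were less frequent in opened peaks in each group, at 18.1% and 24.7%, 19.2% and 27.0%, and 18.1% and 27.1%. SP letters were level in the group of lowest GC, at 3.66% of opened and 3.49% of closed peaks, and ETS letters turned over there, at 29.3% and 24.9%. Whether other features of composition play a part was not tested.

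Neighbouring distal peaks tended to change in the same direction. Of 1311 successive pairs with starts at most 50 kb apart, 1098 (83.8%) had the same direction, against 81.1% among all listed peaks. The share fell with the gap, from 95.4% of 130 pairs under 2 kb to 88.5% of 454 pairs at 2 to 10 kb, 80.5% of 338 at 10 to 20 kb and 77.1% of 389 at 20 to 50 kb. Among all listed peaks the fall was similar, at 93.3%, 85.9%, 79.5% and 74.8% for the same gaps. Beyond 200 kb the share was 61.8% of 979 distal pairs, against 70.6% among all listed peaks. Peaks close to each other may share 1 open region, so they are not independent of one another.

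Chains of at least 3 distal peaks with gaps of at most 50 kb numbered 287 and held 1351 peaks, or 50.6% of all distal peaks. In 96 of them every peak was higher, in 85 every peak was lower and in 106 both directions occurred. Among the 89 chains of at least 5 peaks, 16 were higher throughout and 30 lower throughout.

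The longest chain lay at chr14:53794525-54198140 and had 31 peaks, of which 30 were higher, with a median difference of 0.59. HOMER assigned it to *Dad1*, but GENCODE places it among the variable and joining segments of the T cell receptor α and δ genes, and 9 of its peaks overlapped such a segment. *Dad1* was counted at 7880, 6958 and 6906 in WT and at 7981, 6848 and 6752 in UTX TCD libraries, and these ranges overlapped. *Trac*, the constant region of the receptor α chain, was counted at 108921, 101289 and 100645 in WT and at 107935, 100407 and 100214 in UTX TCD libraries, which overlapped (log2 fold change -0.01 ± 0.05 SE, limma adjusted p = 0.888). Of 144 tested genes with a start within 1 Mb of the chain, 10 (6.94%) were called higher and 6 (4.17%) lower, below the 10.5% and 7.05% of all genes tested. One of them was *Trdv4*, a δ variable segment called higher (log2 fold change 1.45 ± 0.25 SE, limma adjusted p = 0.00162).

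On chromosome 12, chr12:106142862-106379697 held 19 peaks that were all higher, with a median difference of 1.95 and a largest of 5.06. Next along the chromosome, chr12:106501554-106599828 held 9 that were all higher (median 1.81), and chr12:106849226-106926484 held 5 that were all higher (median 2.02). Farther on, chr12:107016764-107269264 held 18 of which 12 were higher, chr12:107335342-107585455 held 11 that were all higher (median 0.69), and chr12:107645492-107653526 held 3 of which 1 was higher. These chains lie between *Vrk1*, a kinase gene, and *Bcl11b*, which encodes a transcription factor of T cell identity. *Vrk1* was counted at 7295, 7268 and 7340 in WT and at 7185, 7313 and 7630 in UTX TCD libraries, which overlapped (log2 fold change 0.01 ± 0.04 SE, limma adjusted p = 0.819). *Bcl11b* was counted at 57104, 53639 and 58331 in WT and at 66193, 68688 and 68766 in UTX TCD libraries. The groups did not overlap, but the difference was short of the fold limit (log2 fold change 0.27 ± 0.05 SE, limma adjusted p = 0.00169).

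*Bach2*, which encodes a repressor that holds T cells in a stem-like state, had 18 distal peaks at chr4:32216979-32364061, all higher, with differences from 0.30 to 1.31. Although HOMER called them intergenic, 16 overlapped the GENCODE gene *Bach2* (chr4:32238804-32586108). All 5 other listed peaks of *Bach2* were also higher. *Bach2* was counted at 25577, 27084 and 25427 in WT and at 40262, 40434 and 36921 in UTX TCD libraries. No values overlapped between the genotypes, and the gene was called higher (log2 fold change 0.59 ± 0.05 SE, limma adjusted p = 3.03e-05).

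Chains in the opposite direction included 16 peaks at chr12:115119491-115404601, all lower, with a median difference of -0.75. HOMER assigned them to *Mir6388*, and 11 overlapped variable segments of the immunoglobulin heavy chain locus in GENCODE. Over all distal peaks, 22 overlapped such *Ighv* segments and 3 of these were higher. Of 14 that overlapped segments of T cell receptor α or δ, 13 were higher. Of 6 tested genes with a start within 1 Mb of the chain, 2 (33.3%) were called lower and 1 (16.7%) higher. Over all genes tested, 7.05% were called lower and 10.5% higher. The 2 called lower were the tested *Ighv* genes inside the chain. *Ighv8-6* was counted at 23.8, 15.8 and 25.9 in WT and at 0, 0 and 0.737 in UTX TCD libraries. *Ighv1-56* was counted at 29.7, 19.7 and 19.1 in WT and at 0, 10.4 and 3.69 in UTX TCD libraries. Both passed the filter, a mean of at least 10 normalized counts, only through their WT values. They could therefore hardly be called higher, and no conclusion on the chain is drawn from these calls. The summed B cell markers given above were also lower in UTX TCD libraries, with *Cd79b* called lower, while *Cd79a* was not called, and the part of B cells in this chain was not tested.

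Further chains lay at *Fut8*, *Btg1*, *Cxcr4*, *Lef1* and *Pmepa1*. At chr12:77039604-77180236, 14 of 15 peaks between *Max* and *Fut8* were lower (median -0.91). *Max*, which encodes the partner of MYC, had 6 of 7 distal peaks lower but was counted at 20626, 20090 and 20062 in WT and at 24302, 24024 and 22642 in UTX TCD libraries. Its counts were higher in UTX TCD without overlap, short of the fold limit (log2 fold change 0.22 ± 0.04 SE, limma adjusted p = 0.00296). *Fut8* was counted at 6008, 5960 and 6383 in WT and at 4107, 4215 and 4443 in UTX TCD libraries, and the groups did not overlap. It was called lower (log2 fold change -0.52 ± 0.05 SE, limma adjusted p = 8.04e-05), but the fold limit was missed without UTX TCD replicate 1 (-0.50), without WT replicate 3 (-0.49) and with libraries scaled to the same sum (-0.46). The call was also lost with a fold limit of log2(1.5). At chr10:96339298-96523657, 13 of 14 peaks were higher beside *Btg1*, an antiproliferative gene, which was not called (log2 fold change 0.13 ± 0.05 SE, limma adjusted p = 0.0731). At chr3:130787968-131026734, 10 of 12 peaks between *Rpl34* and *Lef1* were higher. *Lef1*, which encodes a transcription factor related to TCF1, was short of the fold limit (log2 fold change 0.38 ± 0.08 SE, limma adjusted p = 0.00517), whereas the ribosomal protein gene *Rpl34* was called lower (log2 fold change -0.58 ± 0.05 SE, limma adjusted p = 3.03e-05). The *Rpl34* difference was short of a fold limit of log2(1.5). At chr2:173335881-173470168, 7 of 11 peaks were lower beside *Pmepa1*, which was not called.

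Accessibility and expression mostly went in opposite directions at *Cxcr4*, a chemokine receptor gene. Of its 12 distal peaks at chr1:128705009-128875684, 8 were higher. *Cxcr4* was counted at 85023, 58900 and 79282 in WT and at 49428, 45881 and 34749 in UTX TCD libraries, without overlap, and was called lower (log2 fold change -0.78 ± 0.15 SE, limma adjusted p = 0.0037).

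Distal peaks were assigned to 1258 gene names, of which 1150 were found in the expression table and 759 were tested. The other 391 matched genes were below the filter on low counts, and 112 of them were at 0 in all 6 libraries. Noncoding genes received 25.6% of the distal peaks and 12.8% of the other listed peaks. By GENCODE, 79.0% of distal peaks overlapped no gene, 362 overlapped a long noncoding RNA and 130 a protein-coding gene. A GENCODE transcript start of any kind lay within 50 kb of 75.7% of distal peaks, and a protein-coding one within 50 kb of 14.9%.

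Expression of the assigned genes leaned the way their distal peaks did, with many exceptions. Among 464 tested genes with only opened distal peaks, 81 (17.5%) were called higher and 27 (5.82%) lower, against 10.5% and 7.05% of all genes tested. Among 175 with only closed distal peaks, 43 (24.6%) were called lower and 6 (3.43%) higher. Median log2 fold changes were 0.07 and -0.15, and the median over all genes tested was near 0. Genes with listed peaks but no distal one were called higher at 14.9% and lower at 9.12%. Without genes that had a listed promoter peak, 45 of 382 (11.8%) with only opened distal peaks were called higher. In the same way, 34 of 156 (21.8%) with only closed distal peaks were called lower. Of the 120 genes with distal peaks in both directions, 13 were called higher and 15 lower. In all, 185 of the 759 tested genes (24.4%) were called in either direction, against 17.6% of all genes tested and 24.0% of the genes that had listed peaks but no distal one. Groups did not overlap for 489 of the 759 genes, or 64.4%, against 51.9% of all genes tested.

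Many of these genes also had listed peaks at promoters, in introns or nearby. For 144 tested genes the distal peaks were the only listed ones, and 23 of these (16.0%) were called, close to the 17.6% of all genes tested. Of the 96 whose distal peaks were all opened, 7 (7.29%) were called higher, which is below the share over all genes tested. Of the 32 whose distal peaks were all closed, 8 (25.0%) were called lower. Across genes, the mean difference of the distal peaks correlated with the log2 fold change at Pearson's r = 0.266 and Spearman's rho = 0.269 over 759 genes, and at 0.118 and 0.174 over the 144. The same measures were 0.396 and 0.370 for intron peaks over 4070 genes and 0.481 and 0.474 for promoter peaks over 1685 genes. Genes share the same libraries and are not independent replicates.

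The rule for genes with the most distal peaks gave 22 names with at least 10 peaks each, counting ties, of which 13 were tested. Of these, 3 (23.1%) were called higher and 3 (23.1%) lower, against 10.5% and 7.05% of all genes tested. *Maf*, a transcription factor gene, had 11 distal peaks, all higher (differences from 0.54 to 1.80), and 10 of them formed a chain at chr8:115390973-115530184. It was counted at 297, 369 and 288 in WT and at 2094, 2019 and 2346 in UTX TCD libraries, well apart, and was called higher (log2 fold change 2.76 ± 0.12 SE, limma adjusted p = 5.07e-07). *Zfp608*, a zinc finger gene, had 10 distal peaks, all higher, 58.0 to 701 kb away. Its counts were 56.5, 83.9 and 49.6 in WT and 724, 836 and 668 in UTX TCD libraries (log2 fold change 3.56 ± 0.21 SE, limma adjusted p = 3.99e-06), and it was called higher without overlap. *Tent5a*, which encodes a poly(A) polymerase, had 11 distal peaks, all lower, 10 of them in a chain at chr9:85095281-85144764 with a median of -1.77. Its counts were 19190, 17065 and 20027 in WT and 3768, 3982 and 3770 in UTX TCD libraries, without overlap, and it was called lower (log2 fold change -2.29 ± 0.06 SE, limma adjusted p = 4.48e-08). Listed peaks of these genes that were not distal mostly went the same way. They were higher at 8 of 10 for *Maf*, 9 of 9 for *Zfp608* and 0 of 4 for *Tent5a*.

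*Fut8*, described above, was also called lower, with 12 of 15 distal peaks lower, whereas *Oxsm*, *Marcks* and *Trib2* were not called. *Oxsm*, which encodes a mitochondrial enzyme of fatty acid synthesis, had 15 distal peaks, all lower (median -1.08), yet its counts of 2044, 2296 and 2068 in WT and 2148, 2120 and 2831 in UTX TCD libraries overlapped. *Marcks*, with 13 distal peaks that were all lower, was counted at 1203, 1631 and 1258 in WT and at 916, 1004 and 1115 in UTX TCD libraries, without overlap. The difference was short of the fold limit (log2 fold change -0.42 ± 0.13 SE, limma adjusted p = 0.0258), and it passed without WT replicate 1 (-0.51). *Trib2* had 9 of 10 distal peaks lower and overlapping counts.

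Of the 36 listed genes of progenitor state and lymph node retention, 16 had distal peaks. Their 67 distal peaks were higher at 49 (73.1%) and lower at 18, against 61.5% higher among all distal peaks. Of the 49, 18 belonged to *Bach2* alone. Of the 16 genes, 2 (12.5%) were called higher and 1 (6.25%) lower, near the 10.5% and 7.05% of all genes tested. *Runx1*, a transcription factor gene of lymphocyte development, had 8 distal peaks, all higher (0.50 to 0.94). It was counted at 9300, 7792 and 8648 in WT and at 12171, 11284 and 11499 in UTX TCD libraries, without overlap. The difference was short of the fold limit (log2 fold change 0.44 ± 0.07 SE, limma adjusted p = 0.000772), which it passed without WT replicate 1 (0.50) and with libraries scaled to the same sum (0.51). *Tox*, which encodes a regulator of exhausted and progenitor CD8+ T cells, went against its distal peaks. Of these, 6 of 8 were lower, whereas all 14 of its other listed peaks were higher and its counts of 12218, 12533 and 11782 in WT and 17039, 16316 and 17000 in UTX TCD libraries did not overlap (log2 fold change 0.46 ± 0.04 SE, limma adjusted p = 4.88e-05). This was short of the fold limit, which it passed with libraries scaled to the same sum (0.53). *Foxo1* was similar in its peaks, with 3 of 4 distal peaks lower and all 11 other listed peaks higher. *Gata3* had 7 of 8 distal peaks higher and was not called. *Ikzf2* was called higher and *Icos*, a costimulatory receptor gene, lower, and each had 1 distal peak higher and 1 lower.

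Of the 57 listed effector genes, 12 had distal peaks, 24 of them higher (60.0%) and 16 lower. Of the 24, 11 belonged to *Maf* alone. Among these 12 genes, 2 (16.7%, *Maf* and *Runx2*) were called higher, against 10.5% of all genes tested, and 3 (25.0%, *Itga4*, *Thy1* and *Pdcd1*) lower, against 7.05%. *Thy1*, a surface glycoprotein of T cells, had 4 distal peaks 54.0 to 67.8 kb away, all lower, and 11 other listed peaks that were also all lower. It was counted at 169977, 135061 and 163387 in WT and at 34422, 33235 and 21887 in UTX TCD libraries (log2 fold change -2.41 ± 0.16 SE, limma adjusted p = 8.58e-06), and no libraries overlapped. *Itga4*, an integrin chain used in homing, had 4 of 5 distal peaks lower. Its counts were 92438, 107687 and 89870 in WT and 48247, 46934 and 44513 in UTX TCD libraries, without overlap, and it was called lower (log2 fold change -1.05 ± 0.07 SE, limma adjusted p = 8.48e-06). *Pdcd1*, which encodes PD-1, had a single distal peak that was higher (1.43) but lower expression, at 373, 489 and 399 in WT and 236, 199 and 369 in UTX TCD libraries. The libraries did not overlap, and the call (log2 fold change -0.69 ± 0.22 SE, limma adjusted p = 0.0351) was lost when WT replicate 1 (-0.77), 2 (-0.57) or 3 (-0.72) or UTX TCD replicate 1 (-0.62) or 2 (-0.50) was left out. It was also lost with edgeR (-0.64) and with libraries scaled to the same sum (-0.63).

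Of the 65 listed neuronal adhesion and synapse genes, which often border gene deserts, 3 had distal peaks and none of these was tested. All 4 distal peaks at *Cntn5* and the 1 at *Csmd3* were lower.

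The largest changes in expression among genes with a distal peak came with peak differences of varied size. *Nrn1*, which encodes a small anchored surface protein, had 4 distal peaks, all higher (0.44 to 2.27), and 9 other listed peaks, also all higher. Its counts rose from 527, 751 and 532 in WT to 12126, 12271 and 10341 in UTX TCD libraries (log2 fold change 4.28 ± 0.13 SE, limma adjusted p = 8.91e-08). *Dmrta1*, *Rbm24*, *Gucy1a1* and *Ier5l* were also called higher, at 4.50, 4.33, 3.63 and 3.62, each with 1 or 2 distal peaks, all higher by 0.35 to 1.29. *Ier5l* was counted at 1.98, 1.97 and 1.53 in WT and at 36.0, 31.2 and 33.9 in UTX TCD libraries. In WT, *Ier5l* and *Dmrta1* lay near the floor and passed the filter only through UTX TCD. The size of their fold changes therefore depends on the added count of 1. WT replicate 2 stood apart from the other WT libraries in *Gucy1a1* (888 against 139 and 153) and in *Dmrta1* (15.8 against 2.97 and 3.05). Without it, the *Gucy1a1* log2 fold change was 4.50 and the *Dmrta1* log2 fold change was 5.19. *Klhl14*, with 1 distal peak lower by 1.45 on the log2 scale, had means of 212 and 1.28 normalized counts in WT and UTX TCD libraries, without overlap, and was called lower (log2 fold change -6.66 ± 0.49 SE, limma adjusted p = 1.54e-05). *Megf10*, counted at 52.5, 38.5 and 62.5 in WT, was listed at 0 in all 3 UTX TCD libraries, yet its single distal peak was higher by 1.93. *4930546C10Rik* was called lower at -3.17 with both distal peaks lower, and *Fbln2* at -2.98 with 1 peak in each direction.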

How the data were processed

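RNA-seq reads were aligned by the authors to mm10 with HISAT2 2.2.1 and counted with featureCounts, and the deposited RNA-seq signal is a DESeq2-normalized count. Libraries held 61512402 to 193568919 counted reads, recovered as numbers within 0.05 of a whole number for 100% of values. The authors called ATAC-seq peaks with MACS2, compared them with DiffBind and annotated them with HOMER. The deposited log2 concentrations are means of each genotype. The deposited p-value column (FDR) was read only for its largest value, and the authors' fold and significance columns were not used.

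Genes with a mean of at least 10 normalized counts were tested with limma 3.58.1 (R 4.3.3, trend) on log2(count + 1), with genotype as the only term and Benjamini-Hochberg adjustment. The fit was tested on simulated data. Peaks were joined by gene name, 15 of 1150 through a synonym, and positions came from GENCODE vM21. Sequences were read with samtools 1.23.1 for 23908 of 23932 peaks.

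Named were the 10 largest differences in each direction among distal peaks with a higher mean of at least 5, the 10 chains with most peaks, the 20 genes with most distal peaks with ties, listed progenitor, effector and neuronal genes with a distal peak, the 5 largest called increases and decreases in expression without overlap, and *Kdm6a*. Some of these are not reported here. Other chains and genes were named after their values were seen. Members and lists were chosen with earlier results of these data known. Alternatives covered pseudocount, filter, scaling, edgeR 4.0.16, DESeq2 1.42.0, fold limit, replicate block, each library left out, distance, gap, size of difference and gene type.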

Additional observations from a re-analysis of the deposited data

How the results depend on the processing

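The share of distal peaks higher in UTX TCD cells (61.5%) was 59.6% with a distance limit of 100 kb, 54.2% with 200 kb and 55.3% for absolute differences over 1. With 1 value per chain of neighbours, an alternative chosen after seeing the data, it was 69.3%. The share of neighbours with the same direction (83.8%) was 86.6% with a gap limit of 20 kb and 89.1% for absolute differences over 0.5. Here the cause was not tested.

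The fold limit set the counts. Of all genes tested, 2538 were called, 5887 with no fold limit and 1253 with a fold limit of 1. Genes called higher with only opened distal peaks numbered 81, then 150 and 45, those called lower with only closed distal peaks 43, then 79 and 22, and those called with no other listed peak 23, then 64 and 10. A distance limit of 100 kb, which leaves fewer genes, gave 31, 17 and 8. When single libraries were dropped, the 4 counts ranged from 2164 to 2570, 69 to 83, 40 to 45 and 18 to 24.

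Correlations of deviations between same-numbered libraries were 0.31, -0.20 and 0.09, and those between other-numbered ones ran from -0.32 to 0.29. So few values cannot decide whether replicate numbers pair the libraries. With the replicate block the 4 counts were 2474, 81, 43 and 22.

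Of 983 values for 58 named genes under other settings, 17 lost the call, 25 gained it and none changed sign with a call. For motifs, 8 of 18 were more frequent in opened distal peaks, and the order turned for TCF/LEF, STAT and NFAT in the central bases, for both E-boxes, GATA and FOX at differences over 1, and for STAT, the E2A E-box and FOX beyond 100 kb. Genes below the filter were not tested, and whether depth plays a part in their low counts was not tested.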
